A study of Mus musculus with 4 samples.

Results

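The genes described here encode the proteins that modify, fold, export, trim and crosslink collagen. They are 35 genes chosen by symbol, among the 56980 genes of the count table, for their known place in collagen processing. RNA-seq libraries were made from mesenchymal stromal cells (MSCs) of the bone marrow, sorted from 4 male wild-type C57BL/6J mice of an in-house inbred colony at 14 weeks of age, with 100 cells in each library. The gate kept CD45- Ter119- CD31- CD51+ PDGFRa+ Sca1- cells, so that blood, erythroid and endothelial cells were to be removed. All 4 libraries are one untreated group of separate animals, so no condition was compared, and each level below is a spread over mice. The study used such libraries to find which ligands and receptors the niche cells offer to macrophages.

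Collagen chains are processed first in the endoplasmic reticulum (ER). There, prolyl 4-hydroxylase makes the hydroxyproline that keeps the triple helix stable at body temperature, lysyl hydroxylases and galactosyltransferases modify lysines, and a chaperone set that includes Serpinh1 (HSP47) accompanies the folded procollagen. Outside the cell, proteinases remove the propeptides and lysyl oxidases start the covalent crosslinks of the fibril. Bone-forming cells depend on this machinery, and inherited defects of many of these genes cause brittle bones.

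The libraries held 43545349, 26050230, 42747050 and 22738604 counts in mice 1 to 4, so that those of mice 1 and 3 were the deeper ones. Levels are given as TPM, the count per length of merged exons scaled to 1000000 in each library, and ± is the SD over 4 mice. The genes of the kept antigens were present, with Itgav (CD51) at 15.7 ± 2.51 TPM and Pdgfra at 39.8 ± 7.29 TPM, while Ptprc (CD45) and Pecam1 (CD31) stayed at or below 0.264 and 0.218 TPM. Ly6a, which encodes Sca1, was at 8.95 and 11.6 TPM in mice 2 and 4. Beside the stromal genes, the 4 osteoblast markers summed to between 77792 and 168024 TPM, and all 4 were above 1 TPM by median. Of the other marker lists, 3 erythroid genes summed to between 21.1 and 3725 TPM and 4 adipocyte genes to between 199 and 962 TPM. The 4 chondrocyte genes summed to between 219 and 352 TPM and the 3 osteocyte genes to between 485 and 2127 TPM, with Sost at 0. The chondrocyte sum was almost all Col11a2 (345.5, 228.4, 214.2 and 217.6 TPM in mice 1 to 4). Acan, Col9a1 and Matn3 had medians of 0.596, 1.015 and 0 TPM. Col2a1, a cartilage collagen gene listed with the collagen chains and not with these markers, had 208.5, 386.2, 136.5 and 394.9 TPM. The 4 endothelial genes summed to at most 1.12 TPM with Cdh5 and Kdr at 0, the 4 macrophage genes to at most 6.63 TPM with Adgre1, Csf1r and C1qa at 0, the 3 smooth muscle genes to at most 1.17 TPM with Acta2 at 0, and the 4 neutrophil genes to between 4.10 and 30.7 TPM. In such bulk samples, fewer cells of a type and less RNA per cell cannot be told apart.

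The collagen-processing genes were broadly present and often high. A median above 1 TPM, the cutoff that the study's methods give, was passed by 30 of the 35 genes (85.7%), against 22.9% of all 52125 genes with a length and 44.2% of the protein-coding ones. In every one of the mice, 27 of the 35 (77.1%) were above 1 TPM, against 15.4% of all genes. A median above 100 TPM was reached by 16 of the 35 (45.7%), where 1.9% of all genes reach it. The genes below the cutoff were P4ha3, Colgalt2, Tgm1, Tll1 and Sparcl1. P3h2, Pcolce2 and Tmem38b passed by median only. Together the 35 genes made up 0.816 ± 0.205% of all TPM.

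**Figure D1:**
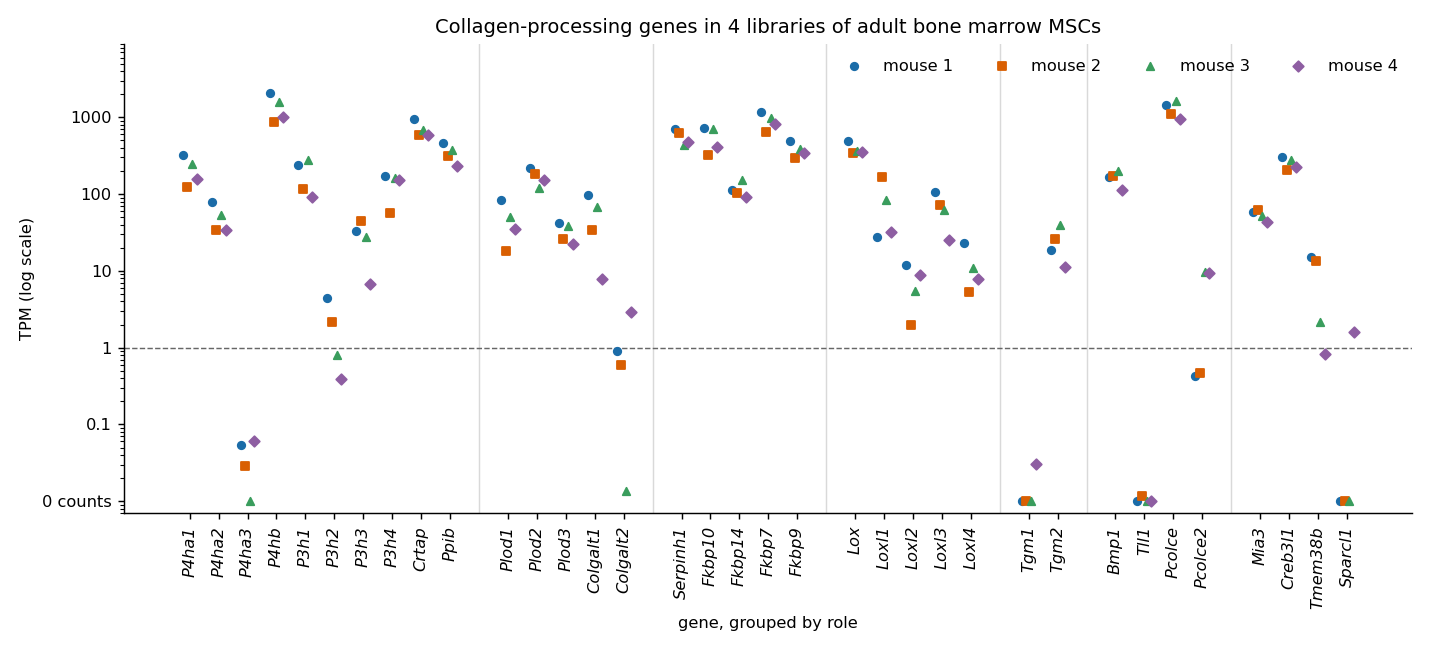
TPM of each of the 35 genes on a log axis, with 1 point for each mouse, genes grouped by role from proline hydroxylation on the left to accessory proteins on the right. Values of 0 counts are drawn at the foot of the axis and the dashed line is the cutoff of 1 TPM. Genes such as Mia3 and Lox sit in a narrow band, whereas Colgalt1, P3h3, Loxl1 and Pcolce2 spread widely between mice.

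Proline hydroxylation and the chaperones accounted for most of this RNA. The proline genes held 36.4 ± 3.31% of the summed TPM of the 35 genes, chaperones and foldases 30.8 ± 1.85%, and the propeptide-cleaving proteins and their enhancers 17.9 ± 2.31%. Lysyl oxidases held 6.95 ± 1.40%, the accessory proteins 3.95 ± 0.361%, lysine modification 3.66 ± 0.507% and transglutaminases 0.300 ± 0.142%. With transcript-specific gene lengths some of these shares shifted by more than their SD, up to 27.8% for propeptide cleavage, and their order turned: chaperones were above proline hydroxylation with the longest transcript, and propeptide cleavage above chaperones with the principal one. With merged exon lengths the proline genes summed to 3021 ± 1022 TPM. Of this, P4hb, whose product also serves other proteins, held 1371 ± 540 TPM and Ppib 347 ± 100 TPM.

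**Figure D2:**
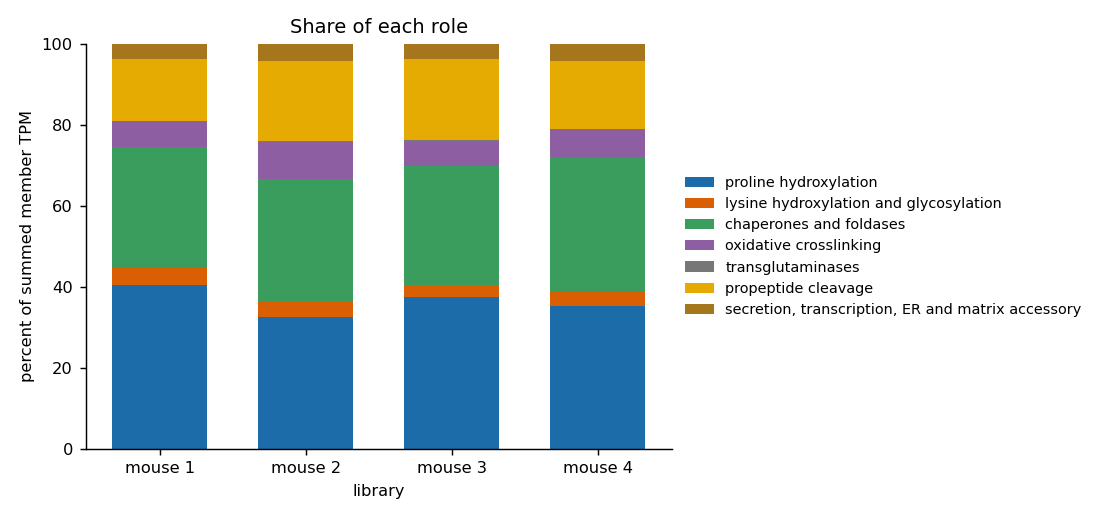
Percent of the summed TPM of the 35 genes held by each role, as stacked bars for the 4 mice. With merged exon lengths the 4 largest shares had the same order in the 4 libraries, with proline hydroxylation between 32.6% and 40.4% and transglutaminases under 0.5%.

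Prolyl 4-hydroxylase is a tetramer of catalytic alpha subunits, made from P4ha1, P4ha2 or P4ha3, with beta subunits from P4hb, the protein disulfide isomerase that also serves other proteins. Among the 3 alpha genes, P4ha1 was the main one, P4ha2 was lower and P4ha3 stayed at or below the floor of 3 counts. The windows of 250 bases before a transcription start of these 4 genes are printed to set the expressed subunits beside the one at the floor. They are from RefSeq, on GRCm38.p6 and on the strand of the gene, and 21 of the 35 genes had such a window. P4hb lies on the minus strand (window chr11:120573254-120573503), and P4ha1 (chr10:59323046-59323295), P4ha2 (chr11:54100674-54100923) and P4ha3 (chr7:100285270-100285519) lie on the plus strand. The P4ha2 window stands before a start that RefSeq places inside the gene as GENCODE draws it, where the gene begins at 54100095. Capitals mark CCACG or its reverse complement CGTGG, the letters at one end of the ER stress response element.

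P4hb: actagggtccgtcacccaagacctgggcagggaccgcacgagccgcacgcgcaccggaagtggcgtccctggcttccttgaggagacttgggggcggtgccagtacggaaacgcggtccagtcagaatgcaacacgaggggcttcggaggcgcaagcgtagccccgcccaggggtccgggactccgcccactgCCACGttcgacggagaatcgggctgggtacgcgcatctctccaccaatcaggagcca
P4ha1: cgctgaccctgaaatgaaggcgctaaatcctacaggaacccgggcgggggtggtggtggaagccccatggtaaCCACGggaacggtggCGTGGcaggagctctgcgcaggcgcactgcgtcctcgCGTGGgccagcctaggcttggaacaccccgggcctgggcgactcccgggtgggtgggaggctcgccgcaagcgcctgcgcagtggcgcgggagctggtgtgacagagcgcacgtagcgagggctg
P4ha2: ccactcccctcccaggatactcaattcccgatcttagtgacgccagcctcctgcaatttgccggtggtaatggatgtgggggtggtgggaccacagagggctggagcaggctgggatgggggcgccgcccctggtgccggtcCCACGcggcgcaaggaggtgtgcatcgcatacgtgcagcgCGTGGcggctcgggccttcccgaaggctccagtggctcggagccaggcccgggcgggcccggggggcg
P4ha3: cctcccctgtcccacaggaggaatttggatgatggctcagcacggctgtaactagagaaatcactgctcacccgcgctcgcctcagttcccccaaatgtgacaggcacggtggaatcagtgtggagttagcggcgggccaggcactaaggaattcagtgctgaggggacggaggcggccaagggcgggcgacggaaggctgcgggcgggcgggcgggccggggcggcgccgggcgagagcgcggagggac

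The letters occurred 1 time before P4hb, 3 times before P4ha1, 2 times before P4ha2 and 0 times before P4ha3. Over all genes of the list with a window, 11 of 21 (52.4%) held them on either strand, against 31.0% of all 27025 genes with a window. The GC box, spelled GGGCGG or CCGCCC, was in 15 of 21 windows (71.4%) against 35.4% of all, and 5 copies, some overlapping each other, stood before P4ha3. CCAAT or ATTGG was in 8 of 21 (38.1%) against 37.5%, and TATAAA or TTTATA in 2 of 21 (9.52%) against 14.3%. The windows shown are rich in G and C, from 66.8% to 70.0%, where the median of all windows is 52.4%. These are matches of letters only, chosen after the levels were seen, and say nothing of what binds there.

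P4hb had 2041, 872, 1571 and 1000 TPM in mice 1 to 4, a mean of 1371 ± 540 TPM. P4ha1 had 322, 123, 245 and 158 TPM (212 ± 89.4 TPM), and P4ha2 had 78.5, 33.6, 53.0 and 34.1 TPM (49.8 ± 21.2 TPM). In both, as in P4hb, the order of the mice was the same at the top, with mouse 1 highest and mouse 3 next. P4ha3 had 3, 1, 0 and 2 counts, where 3 counts correspond to between 0.0544 and 0.0926 TPM. Although the level of each subunit changed more than 2-fold between mice, the ratio of P4hb to the summed alpha genes was nearly constant, at 5.10, 5.57, 5.27 and 5.20 (5.28 ± 0.200). With the length of the principal transcript it was 3.89 ± 0.111, so the spread stayed small while the value depends on the length used.

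Gene length and library scaling cancel in the spread of such within-mouse ratios, which allows every pair of genes to be set side by side. Over the 351 pairs of the 27 genes above 1 TPM in every mouse, the SD of the log2 ratio ranged from 0.078 to 2.33, with a median of 0.617. The pair with the lowest SD was P4hb with P4ha1, the subunits of one enzyme. Next were the ER foldases Fkbp7 and Fkbp9, at 0.082, and Plod2 with Serpinh1, at 0.094. This is a description over 4 mice that was chosen after the values were seen, and among all 8041 other genes above 1 TPM in every mouse P4ha1 was at position 11 in closeness to P4hb. The ratio of P4hb to its substrate moved more. Col1a1, which encodes the main chain of bone collagen, was 14.9, 28.8, 14.2 and 28.7 times P4hb, whereas Col1a1 over Col1a2 was 2.38 ± 0.117. With the principal transcript Col1a1 over Col1a2 was 1.13 ± 0.0559, so its spread stayed small while its value depends on the length used.

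**Figure D3:**
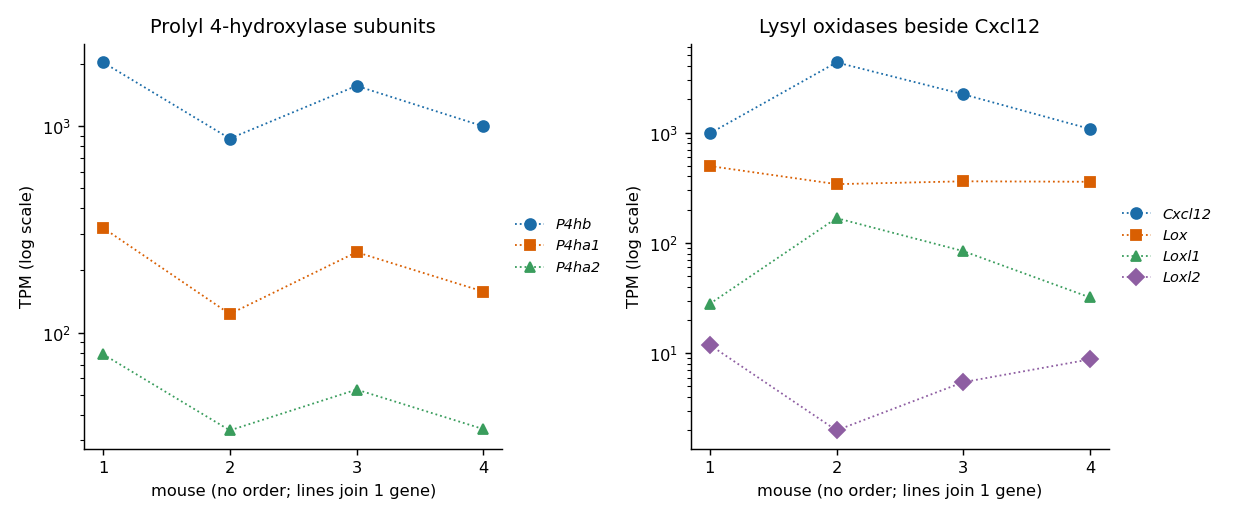
TPM on a log axis of prolyl 4-hydroxylase subunits (left) and of lysyl oxidases with Cxcl12 (right) in the 4 mice, where dotted lines only join the points of 1 gene. P4hb, P4ha1 and P4ha2 run nearly parallel, while Loxl1 is highest in mouse 2 like Cxcl12, and Lox is nearly level with its high point in mouse 1.

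The prolyl 3-hydroxylases modify single prolines, and P3h1 does so in a complex with Crtap and the cyclophilin Ppib. P3h1 had 240, 117, 281 and 90.8 TPM (182 ± 92.5 TPM) and Crtap 943, 581, 676 and 579 TPM (695 ± 172 TPM). Their ratio, unlike that of the prolyl 4-hydroxylase subunits, ranged from 2.41 to 6.38 between mice. Ppib had 469, 315, 373 and 230 TPM (347 ± 100 TPM with merged exons, 908 ± 255 TPM with its short principal transcript), so whether Ppib lies below or above Crtap depends on the length. Ppib also shares 25% of its exonic bases with Snx22, a gene of the opposite strand with 391, 4, 6 and 2 counts. Near-identical stretches in 8 other genes, with the overlapping Snx22 among them, cover 36.9% of the longest Ppib transcript.

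P3h2 and P3h3 were lower than P3h1 in every mouse. P3h3, a relative of P3h1 that works with P3h4 and lysyl hydroxylase Plod1, had 33.1, 44.4, 27.7 and 6.80 TPM (28.0 ± 15.7 TPM). P3h4, which has no hydroxylase domain, had 170, 57.0, 161 and 151 TPM (135 ± 52.4 TPM) and was lowest in mouse 2, where P3h3 was highest. P3h4 was above P3h1 in mouse 4 and below it in the other mice. P3h2, known for its action on basement membrane collagen, had 286, 88, 52 and 15 counts, or 4.37, 2.13, 0.809 and 0.390 TPM. P3h2 fell to or under the cutoff when mouse 1 or mouse 2 was left out, and 28.4% of its exonic bases lie opposite Gm4524, which had at most 1 count.

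Among the lysyl hydroxylases, Plod2, which hydroxylates the telopeptides where crosslinks form, was the highest. It had 220, 182, 121.5 and 151 TPM (169 ± 42.4 TPM), against 84.4, 18.3, 49.9 and 35.2 TPM for Plod1, which modifies the helix (46.9 ± 28.1 TPM). Plod3, which also carries glycosyltransferase activity, had 41.6, 25.9, 38.3 and 22.2 TPM (32.0 ± 9.39 TPM), and 11.7% of its exonic bases are shared with Znhit1. Plod2 was above Plod1 and Plod3 in all 4 mice, whereas Plod1 was above Plod3 in 3 of 4, by 0.39 ± 0.63 on the log2(TPM + 1) scale, less than the SD. Fkbp10 (FKBP65), a foldase needed for telopeptide hydroxylation, was between 1.77 and 5.78 times Plod2.

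Colgalt1, the galactosyltransferase of hydroxylysine, showed the widest range of any of the 27 genes above 1 TPM in every mouse. It had 96.5, 33.99, 67.5 and 7.74 TPM, a 12.5-fold range, from 7344, 1636, 5048 and 346 counts. Its relative Colgalt2 was low, with 67, 28, 1 and 126 counts, and was highest at 2.87 TPM in mouse 4, where Colgalt1 was lowest. Both genes were higher in mouse 1 than in mouse 2. Colgalt1 shares 11.4% of its exonic bases with Unc13a of the other strand, itself at 3, 173, 279 and 10 counts.

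The chaperones and foldases all passed the cutoff in every mouse. Serpinh1, the collagen-specific chaperone, had 707, 623, 441 and 474 TPM (561 ± 126 TPM), and Fkbp10 had 717, 322, 702 and 413 TPM (538 ± 201 TPM). The order of mice thus differed between them, and their ratio ranged from 0.628 to 1.94. Fkbp7 had 902 ± 222 TPM, Fkbp9 380 ± 87.0 TPM and Fkbp14 115 ± 26.6 TPM, with highest over lowest mouse of 1.81, 1.71 and 1.67. Hspa5 and Pdia3, ER folding proteins that are not particular to collagen, were at 955 ± 366 and 756 ± 259 TPM and were highest in mice 2 and 3, respectively. Ero1a, also listed for ER folding, was far lower, at 8.36, 0.714, 4.93 and 15.3 TPM, and thus below 1 TPM in mouse 2.

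Of the 5 lysyl oxidase genes, which encode copper enzymes that oxidise lysines for crosslinking, Lox was the highest in each mouse. Lox had 497, 341, 362 and 358 TPM (390 ± 72.5 TPM), so that mice 2 to 4 were close and mouse 1 stood above them. It made up between 58.0% and 82.9% of the summed TPM of the 5 genes. Loxl1, known for elastic fibres, had 28.0, 168, 84.2 and 32.0 TPM (78.0 ± 65.1 TPM), and its share ran from 4.20% in mouse 1 to 28.5% in mouse 2. Loxl3 had 107, 72.3, 62.0 and 25.5 TPM (66.6 ± 33.4 TPM), Loxl4 11.8 ± 7.98 TPM and Loxl2, which acts on basement membrane collagen, 7.04 ± 4.27 TPM. Loxl3 shares 11.6% of its exonic bases with Htra2 (112 to 1195 counts). Near-identical stretches in 143 other genes cover 48.1% of the longest Loxl2 transcript, so the Loxl2 value from uniquely mapped reads is uncertain.

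Loxl1 and Loxl2 had opposite orders of mice. Loxl2 was lowest in mouse 2, at 2.00 TPM, and highest in mouse 1, at 11.9 TPM. Cxcl12, the chemokine that marks the stromal niche cells, had 983, 4329, 2224 and 1079 TPM, the same order as Loxl1, and Loxl1 over Cxcl12 was 0.0285, 0.0387, 0.0379 and 0.0297. The SD of that log2 ratio was 0.231, where the median of Loxl1 with all 8041 other genes above 1 TPM in every mouse was 1.29 and Cxcl12 was at position 14. The sum of the 5 stromal niche markers (1052, 4532, 2314 and 1194 TPM) is almost all Cxcl12. Of the other niche markers, Lepr, Foxc1 and Ebf3 were also highest in mouse 2 and lowest in mouse 1, but higher in mouse 4 than in mouse 3, and Prrx1 was highest in mouse 1 and lowest in mouse 2. The adipocyte markers summed to 199, 962, 439 and 234 TPM, the order of Loxl1. Adipoq and Cebpa each had that order, with Adipoq nearly equal in mice 1 and 4 (184.3 and 185.4 TPM). Lpl was higher in mouse 4 than in mouse 3, and Pparg was higher in mouse 1 than in mouse 4. The part of these markers in the level of Loxl1 was not tested, and the comparison was made after the values were seen.

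The transglutaminases crosslink proteins through glutamine and lysine. Tgm2, the widely expressed member, was at 24.1 ± 12.3 TPM, highest in mouse 3 and lowest in mouse 4, and shares exonic bases with Rprd1b and Gm20412. Tgm1, the epidermal member, had 0, 0, 0 and 1 count.

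For the propeptides, Bmp1, the C-proteinase, had 168, 173, 199 and 112 TPM (163 ± 36.6 TPM). Its relative Tll1 had 0, 1, 0 and 0 counts. Pcolce, the enhancer that raises Bmp1 activity without cleaving on its own, had 1463, 1116, 1612 and 942 TPM (1283 ± 308 TPM) and with merged exon lengths was, by median, the highest of the 35 genes together with P4hb, which did not differ from it beyond the spread. Pcolce over Bmp1 was 7.94 ± 1.01. With the principal transcript both levels rose, to 2133 ± 498 TPM for Pcolce and 277 ± 61.4 TPM for Bmp1, while P4hb was at 968 ± 373 TPM and thus below Pcolce. Pcolce2, the second enhancer, had 35, 24, 763 and 451 counts, or 0.430, 0.467, 9.55 and 9.44 TPM, so that mice 3 and 4 were above 1 TPM and mice 1 and 2 were not. Pcolce2 fell under the cutoff when mouse 3 or mouse 4 was left out.

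Among the accessory proteins, Mia3 (TANGO1), which loads procollagen into large carriers at ER exit sites, was the most even of the genes past the cutoff. It had 58.7, 61.9, 52.4 and 43.9 TPM, a 1.41-fold range. Creb3l1 (OASIS), an ER-bound factor that raises collagen genes in osteoblasts, had 308, 206, 281 and 225 TPM (255 ± 47.4 TPM). Tmem38b (TRIC-B), an ER cation channel, had 14.9, 13.5, 2.14 and 0.839 TPM from 1000, 570, 141 and 33 counts, a 17.8-fold range. Sparcl1 had 48 counts in mouse 4 and 0 in the others, whereas its relative Sparc was at 39906 ± 9046 TPM.

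The 14 comparisons between members of one family were made mouse by mouse, as differences on the log2(TPM + 1) scale. In 13 of 14, all 4 mice had the same direction and the mean was larger than its SD. P4ha1 exceeded P4ha2 by 2.06 ± 0.16 and P3h1 exceeded P3h3 by 2.76 ± 0.97. Plod2 exceeded Plod3 by 2.38 ± 0.52 and Lox exceeded Loxl1 by 2.66 ± 1.38. Colgalt1 exceeded Colgalt2 by 4.35 ± 2.23, and the difference of Pcolce from Pcolce2 was 8.33 ± 1.72. For these 13, an exact permutation test (two-sided, flipping signs of the mice) gave p = 0.125, which is the lowest that n = 4 can give, and a Benjamini-Hochberg value of 0.135 over the 14, so none could pass 0.05. For Plod1 and Plod3 the exact permutation p was 0.375. The difference of P4ha1 from P4ha2 fell to 0.62 with principal transcript lengths, since the merged exons of P4ha2 span 6239 bases and that transcript 2230.

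**Figure D4:**
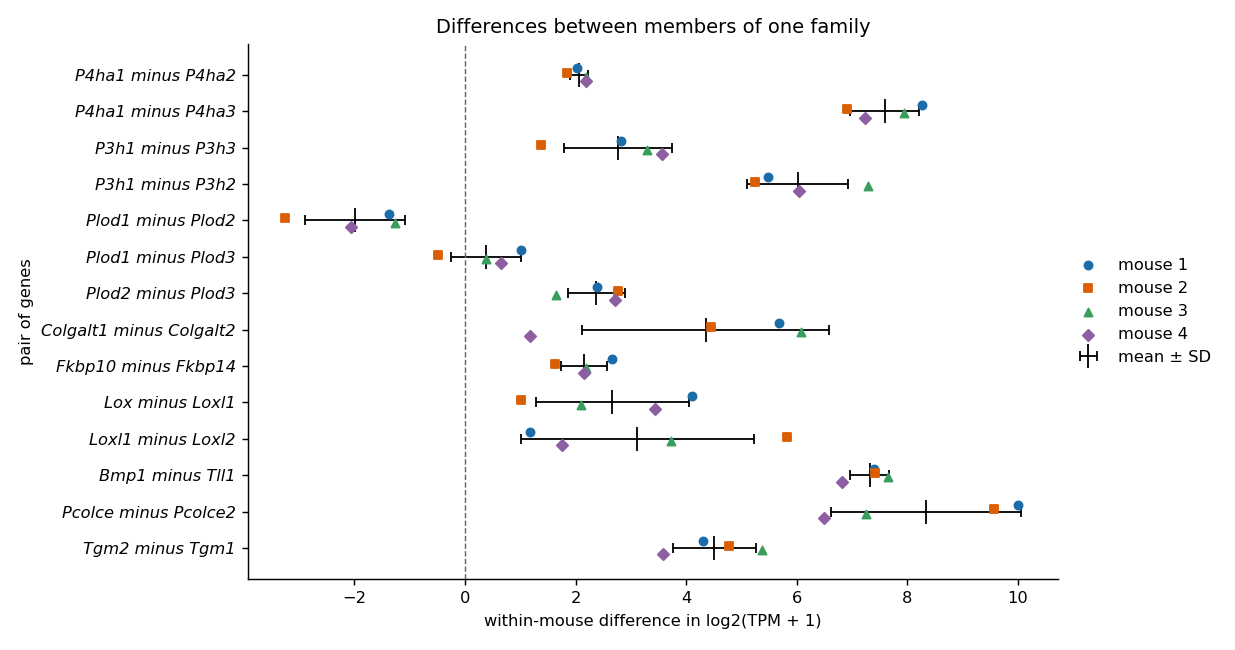
Difference in log2(TPM + 1) between members of one family within each mouse (points), with the mean and SD over the 4 mice (bar). All pairs but Plod1 and Plod3 lie on 1 side of 0 in the 4 mice, with P4ha1 and P4ha2 in a narrow range and Colgalt1 and Colgalt2 in a wide one.

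Ranked by median TPM, few neighbours in the order were separated. Of the 29 neighbouring pairs among the 30 genes past the cutoff, 6 differed by more than the SD of their difference, and in 5 of these the upper gene was higher in every mouse. P4hb above Fkbp7, Fkbp7 above Crtap, Serpinh1 above Fkbp9, Ppib above Creb3l1 and Fkbp14 above Loxl3 were those 5. In the lower part of the order, from Loxl3 down to P3h2, no neighbours differed beyond their spread.

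Mouse 1 tended to hold the highest value. Of the 27 genes above 1 TPM in every mouse, 19 (70.4%) were highest in mouse 1, where 25.3% of all 8042 such genes were. None was highest in mouse 4, against 17.2% of all such genes. Mice 1 and 3 had the deeper libraries. In 18 of the 27 genes both lay above both shallower libraries, against 26.9% of all such genes, and in 0 of the 27 both lay below, against 13.4%. With TMM factors the first number was 15, against 21.9% of all such genes, and with a common upper quartile 12, against 18.3%. The second stayed 0, against 17.6% and 20.9%. Those scalings lower mouse 3 by 0.12 or 0.18 and raise mouse 4 by 0.09 or 0.14 for the median gene on the log2 scale. Of the 4 osteoblast markers, Sp7 (339, 158, 255 and 151 TPM) and Alpl (892, 550, 963 and 573 TPM) were also higher in mice 1 and 3. Bglap ran the other way (96604, 119827, 55668 and 156730 TPM), Ibsp was highest in mouse 3 and lowest in mouse 4, and the sum of the 4 was higher in mice 2 and 4 (108982, 133635, 77792 and 168024 TPM). The erythroid markers were higher in mice 1 and 3 (3725, 21.1, 1298 and 270 TPM). Depth, these markers and the levels of the collagen-processing genes cannot be told apart over 4 mice. Among the genes that went against this order, Loxl1, P3h3 and Mia3 were highest in mouse 2, and Plod2 and Serpinh1 were lowest in mouse 3.

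**Figure D5:**
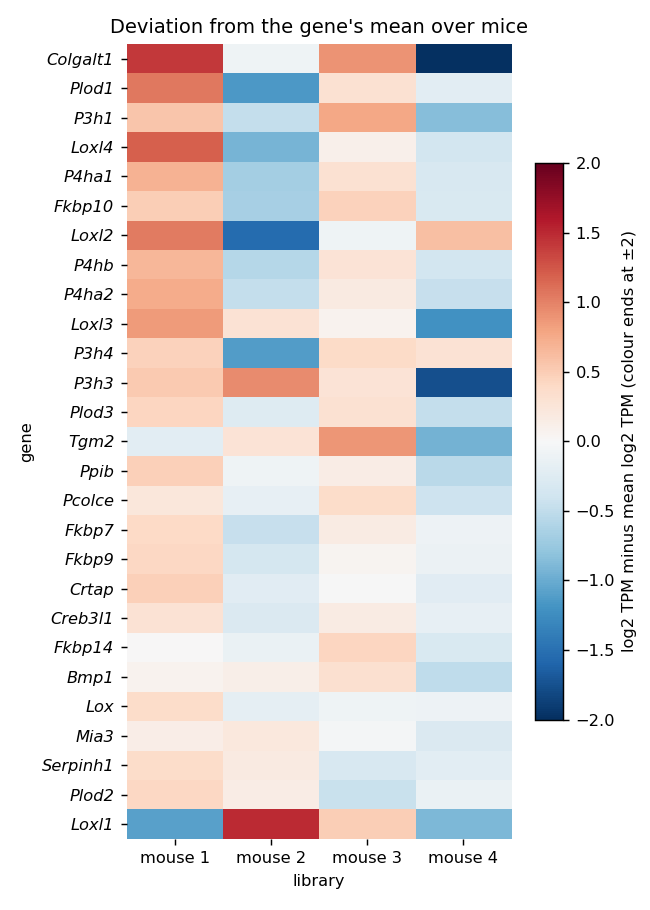
Deviation of log2 TPM from the mean of each gene over mice, for the 27 genes above 1 TPM in every mouse, with genes sorted by how far mice 1 and 3 exceed mice 2 and 4. Mouse 1 is at or above the mean for most genes, Loxl1 at the foot has its high point in mouse 2 and its low point in mouse 1, and Colgalt1 at the top has its low point in mouse 4.

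The spread between mice was far above counting error and, up to 1000 TPM, lower at higher levels. Counting error here takes each counted pair as an independent molecule, which PCR duplicates are not. Sampling of the 100 cells and amplification cannot be told apart from differences between mice. Of the 14 genes with a mean between 100 and 1000 TPM the median coefficient of variation was 24.7%, against 23.5% of all genes at that level, where counting alone gives 1.33%. Of the 10 genes between 10 and 100 TPM it was 53.6%, against 42.4%. Of the 5 between 1 and 10 TPM it was 94.1%, against 89.6%. P4hb and Pcolce, the 2 genes above 1000 TPM, varied by 39.4% and 24.0%, where the median at that level is 17.4%.

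Of 21 further genes that serve the same route, 20 passed the cutoff, against 22.9% of all genes and 44.2% of the protein-coding ones, and 16 did so in every mouse, against 15.4% of all genes. With a cutoff of 5 TPM, 15 passed, but no share of all genes at that cutoff is given to set beside it. Of the 7 genes for procollagen export, all passed, among them the COPII coat genes Sec24d at 70.9 ± 14.7 TPM and Sec31a at 82.0 ± 32.2 TPM, while Klhl12, an adaptor of the ligase that enlarges COPII carriers, was at 2.22 ± 2.42 TPM. Slc39a13, the zinc transporter whose loss impairs lysyl hydroxylation, had 77.9 ± 30.9 TPM. The ascorbate transporter Slc23a2 was low, with 0.822, 0, 1.55 and 5.05 TPM, and passed by its median of 1.19 TPM only. For copper supply to the lysyl oxidases, the importer Slc31a1 had 62.9 ± 26.1 TPM, whereas the pump Atp7a had 0.488, 0.546, 1.45 and 1.24 TPM and did not pass. With the longest or the principal transcript Atp7a passed, so that all 21 did. Of the N-proteinases, Adamts2 had 77.1 ± 31.4 TPM and was highest in mouse 2, at 123.5 TPM, while Adamts3 had 4.42, 14.5, 0 and 0.553 TPM, highest in mouse 2, and Adamts14 had 3.80, 3.995, 1.11 and 24.4 TPM, highest in mouse 4.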

How the data were processed

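RNA-seq libraries of 100 sorted MSCs from each of 4 mice were analysed as one group. The authors aligned read pairs with STAR 2.7.10 to GRCm39, assigned unique pairs to exons with featureCounts (Subread 1.6.5) and deposited raw counts per gene. The counting options they give name no strand, so a gene and an overlapping gene of the other strand are not separated, and pairs on shared exons are not counted. TPM was computed with merged exon lengths of GENCODE M21 (GRCm38), which covered 52125 genes and between 96.1% and 98.2% of counts, leaving out 4855 genes. No coordinates were converted. BLAST 2.17.0 gave near-identical stretches in transcripts of other genes (at least 95% identity over 100 bases), and genes that overlap at the same place were not left out. A cutoff of 1 TPM, a pseudocount of 1 on the log2 scale and a floor of 3 counts were used, and such floors hold for counting error alone, as PCR duplicates are no independent molecules. Libraries were compared pairwise by chi-square, and none was a copy of another. Pairs of genes were compared by an exact permutation test that flips the signs of the mice, two-sided. Alternatives were other lengths, TMM factors from edgeR 4.0.16, a common upper quartile, a denominator without the highest genes, another pseudocount, other cutoffs and leaving out each mouse. The code (Python 3.11.15) was tested on simulated data.

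Genes of the list are all named. The genes, further lists, pairs and alternatives were chosen with earlier results of these data known, and the principal transcript length was added after the levels were seen. Macrophage libraries were not analysed here.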

Additional observations from a re-analysis of the deposited data

Results flagged for a closer look

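Of 57 values, 6 had 1 mouse far from the other mice. The distance from that mouse to the next one, divided by the range of the 4, exceeded the critical value of Dixon's test at 95%. For continuous, normally distributed values about 1 in 20, or 2.85 of 57, would be set apart by chance. That rate does not hold for genes with counts in 1 mouse only, whose gap is 1 by construction. The 6 can therefore not be set against 2.85. P3h4 was lowest in mouse 2, at 57.0 TPM (gap 0.835 of the range). Lox was highest in mouse 1, at 497 TPM (gap 0.866). The share of chaperones and foldases in the summed TPM was highest in mouse 4, at 33.5% (gap 0.839). Tgm1, Tll1 and Sparcl1 had counts in 1 mouse only (a gap of 1, the whole range, for each), with 1, 1 and 48 counts.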

How the results depend on the processing

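The 30 genes past the cutoff were 28 with a cutoff of 5 TPM, 29 without any one mouse, and 30 or 31 under the other alternatives. The 27 genes above the cutoff in every mouse were 26 to 28 under every alternative. Of the 21 further genes, 15 passed at 5 TPM, 21 with either other length, and 19 or 20 without 1 mouse. For the cutoff of 5 TPM no share of all genes is given to set beside these counts. The 14 family differences kept their direction under all 10 alternatives run for them. Differences from P4ha3, Tll1 and Tgm1, which are at or near 0 counts, depend on the pseudocount and are no measure of a fold. Gene length moved the most values, and a change of lengths moves every gene through the total of its library. With the longest transcript, the share of proline hydroxylation was 30.8%, of lysine modification 4.34%, of chaperones and foldases 33.5%, of propeptide cleavage 21.8% and of accessory proteins 3.50%. With the principal transcript, a length added after the data were seen, chaperones and foldases held 27.5%, lysyl oxidases 4.69%, propeptide cleavage 27.8% and accessory proteins 2.86%. The means of 6 and 8 of the 35 genes moved by more than 1 SD with these lengths. TMM factors and a common upper quartile moved no mean by more than 1 SD and cannot move a share within a library. Means without 1 mouse stay within 1 SD by construction and show no stability. No paired analysis was possible because all libraries form one group.

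Counting error, taken as if counted pairs were independent molecules, was small beside the spread between mice except for genes with a few counts. With 4 mice the permutation test cannot pass 0.05 in any setting.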

Other observations

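Some genes that overlap the collagen-processing genes on the opposite strand had counts of their own. AC161119.1, which overlaps Lox by 0.628% of its exonic bases, had 999, 425, 132 and 330 counts. Gm38391, which overlaps Plod2 by 6.42%, had 718, 10, 471 and 151 counts, and Nt5c3b, which overlaps Fkbp10 by 6.58%, had 1690, 1256, 1179 and 973 counts. Pairs on the shared exons are counted for neither gene, so these counts come from the other exonic bases.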
